A study of Mus musculus with 9 samples.

Results

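The seed family of miR-15, miR-16, miR-103 and miR-107 was followed in the hippocampus of mice after aspiration of fine particulate matter (PM2.5). Its 7 members are mmu-miR-15a-5p, mmu-miR-15b-5p, mmu-miR-16-5p, mmu-miR-195a-5p, mmu-miR-497-5p, mmu-miR-103-3p and mmu-miR-107-3p (written below without the species prefix), taken by name from the 1247 mouse miRNAs on the array. All 7 were detected on 9 of 9 arrays, so all 7 were among the 424 miRNAs that were tested. Male C57BL/6 mice of about 8 weeks received oropharyngeal aspiration of saline (control), of PM2.5 with 1 mg per kg body weight (low dose), or of PM2.5 with 5 mg per kg body weight (high dose), repeated over 4 weeks, and were killed 18 hours after the last exposure. Each group had 3 replicate arrays, which the study counts as 3 mice. RNA of the whole hippocampus was labelled and hybridized to Agilent mouse miRNA arrays, on which the fluorescence of spots of short DNA probes measures each miRNA. The study read these arrays as a screen at an unadjusted p of 0.05, in search of miRNAs that target BACE1, the β-secretase that cleaves the amyloid precursor protein, and miR-107 is among the miRNAs it names for BACE1.

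A miRNA guides the silencing complex to messenger RNAs that pair with its seed, the stretch near its 5′ end, and miRNAs with the same seed are expected to share targets. The group of miR-15 and miR-16 is known for holding back the cell cycle and for lowering BCL2, a protein that blocks cell death, and its first known locus is lost in many chronic lymphocytic leukaemias. The genes of miR-103 and miR-107 sit inside genes of pantothenate kinases, which make coenzyme A, and both miRNAs are known for acting on Dicer and on insulin sensitivity. In the brain, miR-107 is known for falling early in Alzheimer's disease.

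The sequences show what joins and what divides the 7. Among these 7, the values below divide as the seeds do. Beyond them this did not hold: miR-322-5p has the seed of 5 of them and did not vary with them, while many other miRNAs did. The sequences are given 5′ to 3′ from RefSeq (GRCm38.p6), with the seed, bases 2 to 8, in capitals.
miR-15a-5p: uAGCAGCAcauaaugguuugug
miR-15b-5p: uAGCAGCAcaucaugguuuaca
miR-16-5p: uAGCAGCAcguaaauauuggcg
miR-195a-5p: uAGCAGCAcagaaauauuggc
miR-497-5p: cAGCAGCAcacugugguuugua
miR-103-3p: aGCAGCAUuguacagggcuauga
miR-107-3p: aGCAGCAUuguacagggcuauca
The letters AGCAGC start at base 2 in 5 members, which share the seed AGCAGCA, and at base 1 in the other 2, whose seed is GCAGCAU. The common letters are therefore shifted by a base, and the 5 and the 2 do not share a seed of bases 2 to 8. RefSeq holds miR-497-5p under the name miR-497a-5p, and the other members under the array's names. Counted from the 5′ end, miR-103-3p and miR-107-3p differ by G22C alone, and miR-16-5p and miR-195a-5p differ by G10A and U11G over the length they share.

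The members come from 6 places in the genome, given here as spans of the miRNA genes in GRCm38.p6. Mir497 (chr11:70234717-70234800) and Mir195a (chr11:70235042-70235135) lie on the plus strand with 310 bases between their mature arms, in no annotated gene span. Mir15a (chr14:61632027-61632110) and Mir16-1 (chr14:61631880-61631972) lie on the minus strand within the span of the non-coding gene Dleu2. On chromosome 3, Mir15b (chr3:69009772-69009835) and Mir16-2 (chr3:69009902-69009996) lie within Smc4, which codes for a condensin subunit. The mature miR-16-5p of both loci is the same, so the array measures their sum. Mir103-1 (chr11:35782396-35782481) lies within Pank3, Mir103-2 (chr2:131288052-131288137) within Pank2, and Mir107 (chr19:34820687-34820773) within Pank1, and miR-103-3p is likewise a sum over both of its loci.

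Each member was measured by 2 probes of 20 spots each, and 18 of the 21 changes of a member in a comparison had the same sign in both probes. The others were miR-103-3p at the low dose, miR-107-3p at the high dose and miR-16-5p between the doses. On slide 1, all control arrays shared row 1 with low-dose replicate 1 and 4 further PM2.5 arrays filled row 2, while high-dose replicate 3 was by itself on slide 2. Between 410 and 436 miRNAs were detected per array, and no spot was saturated. The defining miRNAs of neurons on the list, miR-124-3p, miR-9-5p, miR-128-3p and miR-138-5p, were detected on 9 of 9 arrays. Values below are log2 normalized signals, that is, the signal of a miRNA relative to the 75th percentile of its array, so 1 unit is a 2-fold difference. They compare arrays for the same miRNA and do not rank the amounts of different miRNAs. Sums over marker miRNAs add up signals, are no measure of amounts, and mostly follow the miRNAs with the highest signal. Precision is limited by having 3 arrays a group, and both doses are compared with the same 3 control arrays.

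No member passed the test at either dose. At the low dose, 0 of the 7 members had an unadjusted p under 0.05 in limma, where 7.78% of all 424 tested miRNAs did, and at the high dose 0 of 7 did, where 9.43% of all tested miRNAs did. After adjustment over all tested miRNAs the counts were 0 of 7 at both doses, and 0.236% and 0.00% of all tested. The changes of 6 of the 7 were below 0 at the low dose (60.1% of all tested), from -0.37 to 0.01 with a median of -0.10, beside a median of -0.03 over all tested miRNAs. At the high dose 6 of 7 were again below 0 (51.2% of all tested), from -0.50 to 0.11 with a median of -0.23, beside -0.003 over all tested. Between the doses 0 of 7 passed (3.77% of all tested). In samples of whole tissue, fewer cells of a type and less RNA per cell cannot be told apart.

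**Figure D1:**
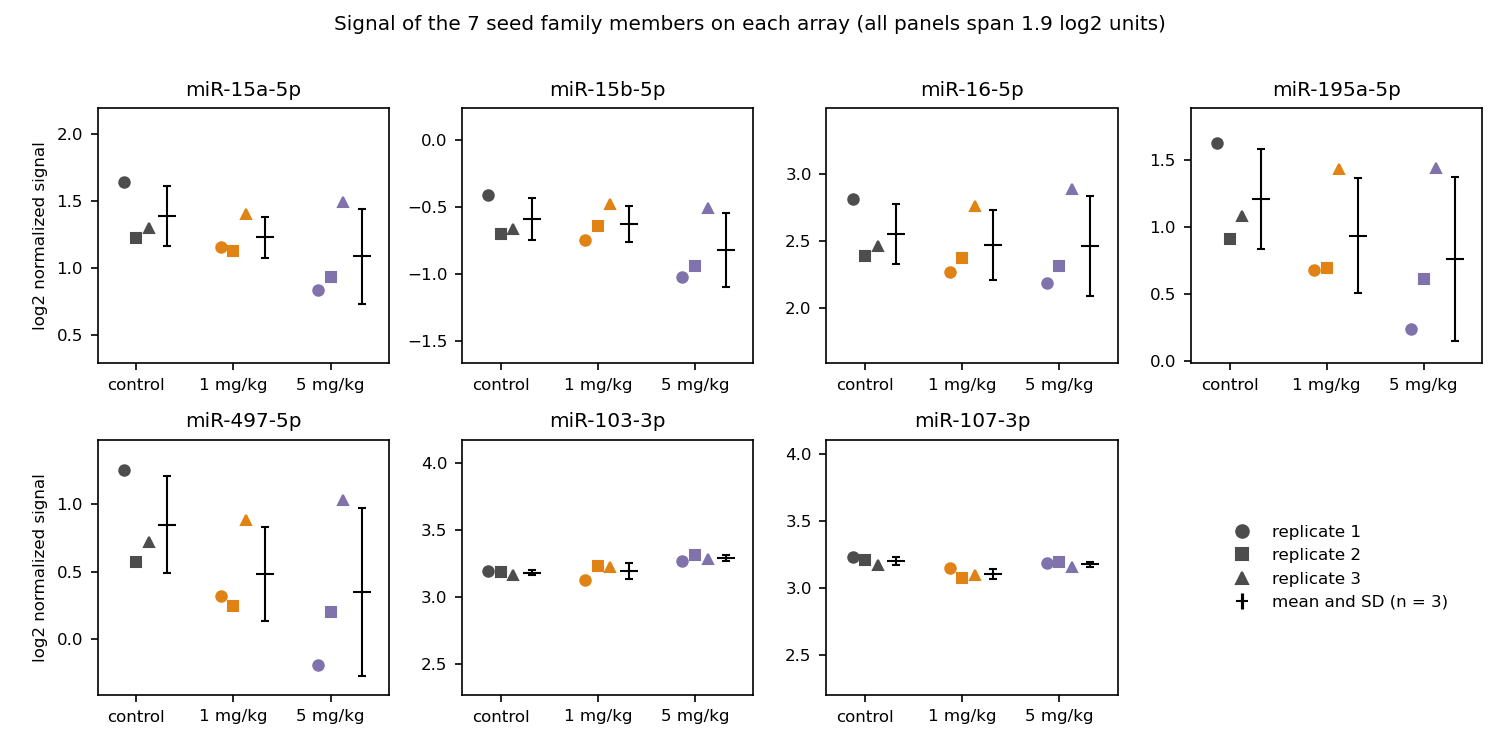
Log2 normalized signal (y axis) of the 7 members on the 3 arrays of each group (x axis); symbols are replicates, bars are the group mean and SD (n = 3), and all panels span the same height. The first 5 members have 1 high array in each group, control replicate 1, low-dose replicate 3 and high-dose replicate 3, while miR-103-3p and miR-107-3p stay within 0.18 and 0.15 log2 units over all 9 arrays.

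The members of the miR-497 and miR-195a cluster had the lowest mean changes and the widest spread. The signal of miR-497-5p was 1.26, 0.57 and 0.72 on control replicates 1 to 3, then 0.32, 0.24 and 0.89 at the low dose, and -0.19, 0.20 and 1.03 at the high dose. The groups overlapped: the highest array at the high dose lay above 2 of the 3 control arrays, and the lowest lay below all others. The log2 change was -0.37 at the low dose (standard error 0.32, exact permutation p = 0.3) and -0.50 at the high dose (standard error 0.32, exact permutation p = 0.3), a mean of 0.705 of the control, and the 95% interval at the high dose ran from -1.25 to 0.24. miR-195a-5p, a near copy of miR-16-5p, had 1.62, 0.91 and 1.08 on the control arrays, 0.68, 0.69 and 1.43 at the low dose, and 0.24, 0.61 and 1.44 at the high dose. Its high arrays were those of miR-497-5p, and its groups overlapped as well. Its log2 change was -0.27 at the low dose and -0.44 at the high dose (standard error 0.34 for both, adjusted p = 0.865 and 0.705 in limma). From the lowest to the highest array the signal of miR-497-5p differed 2.73-fold and that of miR-195a-5p 2.61-fold.

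miR-15a-5p and miR-15b-5p, which differ from each other at 4 bases and come from separate chromosomes, followed the same arrays with smaller steps. The values of miR-15a-5p were 1.64, 1.23 and 1.30 in the control group, 1.16, 1.13 and 1.40 at the low dose, and 0.84, 0.93 and 1.50 at the high dose. Those of miR-15b-5p were -0.41, -0.70 and -0.66, then -0.75, -0.64 and -0.48, then -1.02, -0.94 and -0.50. For both, 2 of the arrays at the high dose lay below every other array and the third lay among the highest. The log2 changes at the high dose were -0.30 (standard error 0.19, exact permutation p = 0.3) for miR-15a-5p and -0.23 (standard error 0.15, exact permutation p = 0.3) for miR-15b-5p. At the low dose they were -0.16 and -0.03.

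For miR-16-5p, the member that both miR-15 loci share, the arrays read 2.81, 2.39 and 2.46 in the control group, 2.27, 2.37 and 2.76 at the low dose, and 2.19, 2.31 and 2.89 at the high dose. The highest and the lowest of the 9 values were both at the high dose. Its log2 changes were -0.08 at the low dose and -0.09 at the high dose (standard error 0.21 for both). miR-16 is abundant in red cells, and the blood miRNAs are given beside it for that reason. Of the 5 on the list, 4 are on the array and 3 were tested, miR-144-5p was detected on no array, and their summed signal, relative to the 75th percentile, was 3.02 to 3.82 in the control group, 3.11 to 3.61 at the low dose and 3.90 to 4.22 at the high dose. Most of that sum is the signal of miR-451a, at 1.52 to 2.01 in log2, beside -3.29 to -2.78 for miR-223-3p and -5.50 to -4.27 for miR-144-3p. miR-451a, which is made in red cell precursors, was higher at the high dose by 0.26 (standard error 0.10, unadjusted p = 0.0344 and adjusted p = 0.469 in limma, where 9.43% of all tested passed the unadjusted threshold). Between the doses miR-451a was higher at the high dose by 0.29 (unadjusted p = 0.0210 and adjusted p = 0.995 in limma, where 3.77% of all tested passed). Its correlation with miR-16-5p over the 9 arrays, after the group means were taken off, was -0.52. That of miR-144-3p, detected on 8 of 9 arrays, was -0.85, and that of miR-223-3p was 0.03.

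The size of these differences depended on single arrays of the control and the high-dose group. Without high-dose replicate 3, the array alone on slide 2, the log2 changes at the high dose were -0.50 for miR-15a-5p (unadjusted p = 0.00777 in limma), -0.39 for miR-15b-5p (0.0106), -0.78 for miR-195a-5p (0.0256) and -0.85 for miR-497-5p (0.0116), so 4 of 7 members passed the unadjusted threshold, and miR-16-5p stood at -0.30 (unadjusted p = 0.125 in limma). In that comparison 28.3% of all tested miRNAs passed it, and 0 members passed after adjustment (adjusted p = 0.165 for each of the 4). Against the low dose, miR-15a-5p and miR-15b-5p passed as well without this array, by -0.34 and -0.36, where 8.25% of all tested did. Other arrays moved the changes toward 0. Without high-dose replicate 1 the changes at the high dose were -0.17 for miR-15a-5p, -0.13 for miR-15b-5p, -0.18 for miR-195a-5p and -0.23 for miR-497-5p, and without control replicate 1 they were -0.17, -0.14, -0.24 and -0.30. The change of miR-16-5p turned to 0.048 and 0.041 without these arrays, and no member passed the unadjusted threshold in either case. Whether high-dose replicate 3 differs through its slide or through the animal cannot be told apart. In a fit that also held a term for the row number, the changes of miR-195a-5p and miR-497-5p at the high dose were -0.23 and -0.24. That term puts high-dose replicate 3, in row 1 of slide 2, together with row 1 of slide 1, so these values rest in part on that array.

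**Figure D2:**
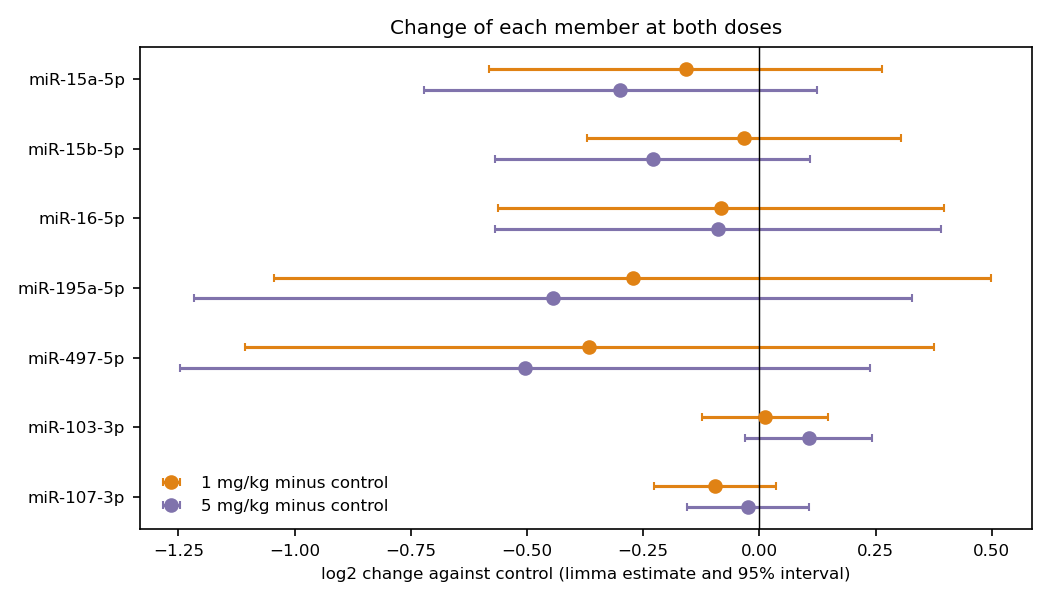
Log2 change against control (x axis) of each member (y axis) at the low and the high dose; points are limma estimates and bars 95% intervals. All 14 intervals include 0, and those of miR-103-3p and miR-107-3p are the narrowest, within -0.23 and 0.24.

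miR-103-3p and miR-107-3p had small changes at this scaling, and their arrays lay close together. miR-107-3p, the member that the study names for BACE1, had 3.23, 3.21 and 3.17 on the control arrays, 3.15, 3.08 and 3.10 at the low dose, and 3.19, 3.19 and 3.16 at the high dose. All 3 arrays at the low dose lay below all 3 control arrays, while those at the high dose overlapped with the control. The log2 change was -0.10 at the low dose (standard error 0.06, adjusted p = 0.655 in limma) and -0.02 at the high dose (standard error 0.06, adjusted p = 0.884 in limma). The 95% interval at the high dose ran from -0.16 to 0.11, and at the low dose from -0.23 to 0.04. At the high dose the probes of miR-107-3p went opposite ways, with changes of -0.04 and 0.02.

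miR-103-3p had 3.20, 3.19 and 3.16 on the control arrays, 3.13, 3.23 and 3.22 at the low dose, and 3.27, 3.31 and 3.28 at the high dose. Here the high-dose arrays lay above all others, and the low-dose arrays spanned the control. The log2 change was 0.01 at the low dose and 0.11 at the high dose (standard error 0.06 for both, exact permutation p = 0.8 and 0.1). With 3 arrays a side, 0.1 is the smallest exact p that can be had. Groups that did not overlap were found for 1 of 7 members at each dose, miR-107-3p at the low dose, where 12.3% of all tested miRNAs did not overlap, and miR-103-3p at the high dose, where 16.0% did not. Between the doses both miRNAs were higher at the high dose without overlap, by 0.09 and 0.07 (2 of 7 members, beside 7.31% of all tested).

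These small changes depended on the test and on the scaling. limma raises the variance of miRNAs whose arrays lie this close. With each miRNA's own variance, as the LSD comparison of the methods uses it, miR-107-3p at the low dose had an unadjusted p of 0.00761 (adjusted p = 0.393) and miR-103-3p at the high dose one of 0.0126 (adjusted p = 0.301), and the difference between the doses passed for both (unadjusted p = 0.0209 for miR-103-3p and 0.0262 for miR-107-3p). In those fits without moderation 7.31%, 10.1% and 4.72% of all tested miRNAs passed in the 3 comparisons. Without scaling between arrays the change of miR-107-3p was 0.01 at the low dose and 0.09 at the high dose, and from the total signals in the files it was 0.04 and 0.13, while quantile normalization gave -0.15 at the high dose (unadjusted p = 0.0590 in limma, adjusted p = 0.497) and the deposited table -0.16 (unadjusted p = 0.0696, adjusted p = 0.603 in limma), so its sign and size followed the scaling. The total signals gave 0.26 for miR-103-3p at the high dose (unadjusted p = 0.0208 in limma, adjusted p = 0.155, where 24.1% of all tested miRNAs passed).

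The difference between miR-103-3p and miR-107-3p within an array is free of any factor that scales the whole array, though not of quantile normalization. It was looked at after the values above were seen and is given without a test. The probes read the base at which the 2 miRNAs differ, shown in capitals (C2G, counted from the 5′ end of the probe).
miR-103-3p, longer probe: tCatagccctgtacaatg
miR-103-3p, shorter probe: tCatagccctgtacaat
miR-107-3p, longer probe: tGatagccctgtacaatgct
miR-107-3p, shorter probe: tGatagccctgtacaatgc
How far each probe also binds the other miRNA was not tested. The log2 signal of miR-103-3p minus that of miR-107-3p was -0.03, -0.02 and -0.01 on the control arrays, -0.02, 0.15 and 0.13 at the low dose, and 0.08, 0.12 and 0.12 at the high dose. The 4 low values were the 4 arrays of row 1 of slide 1, which hold all control arrays and low-dose replicate 1, and the 5 high values were all the other arrays. The same split was seen with quantile normalization, from -0.17 to -0.04 against 0.10 to 0.29, and in the deposited table, from -0.15 to -0.05 against 0.12 to 0.27. The size differed: the mean difference between the high-dose and the control arrays was 0.13, with quantile normalization 0.24 and in the deposited values 0.31. The deposited values are on a wider scale, with slopes of 1.23 to 1.25 on the values used here. They also have equal quartiles, as quantile normalization gives, so both alternatives are alike. These alternatives were chosen after the values were seen. The position on the slides and the dose overlap here, and for the control against the high-dose arrays they cannot be told apart.

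**Figure D3:**
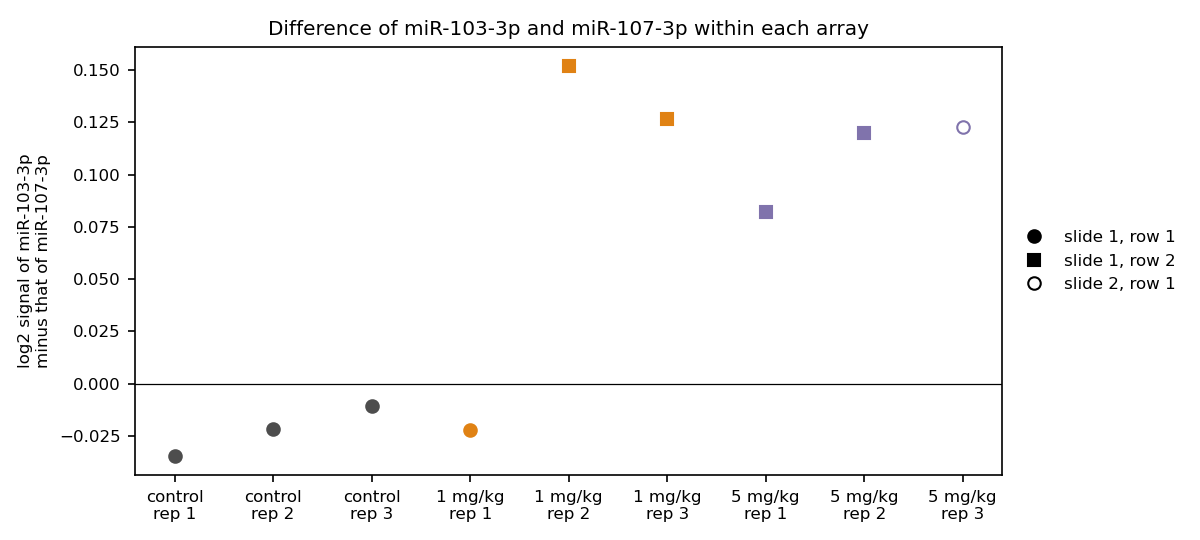
Log2 signal of miR-103-3p minus that of miR-107-3p (y axis) on each of the 9 arrays (x axis); the symbol gives the slide and its row. The 4 arrays of row 1 of slide 1 lie between -0.03 and -0.01 and the other 5 between 0.08 and 0.15.

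Between arrays of the same group, the 5 members with the seed AGCAGCA varied together. Their deviations from the group mean were positive on control replicate 1, low-dose replicate 3 and high-dose replicate 3 and negative on the other 6 arrays. The pair from a common cluster, miR-195a-5p and miR-497-5p, had Pearson's r = 0.994 and Spearman's rho = 0.967 over 9 arrays after the group means were taken off (exact permutation within groups, two-sided p = 0.00926 for both; adjusted over the 21 pairs of members, 0.0243 for r and 0.0648 for rho). The pair was named beforehand as varying between these arrays, so its p-values describe the arrays and are no independent support for a shared movement. Without control replicate 1 and high-dose replicate 1, the arrays farthest from the median of miR-195a-5p, r was 0.992, with an exact permutation p of 0.0833 where 0.0417 is the smallest possible. Without the 3 high arrays it was 0.976 over 6 arrays. The arrays then left in a group mirror each other around its mean, so this r rests on a single difference per group. A row of a slide holds at most 4 arrays, too few for an r within it, and with the row number as a term r was 0.999.

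Pairs of other clusters and of separate chromosomes had an r of similar size. For miR-15a-5p and miR-16-5p r was 0.972, for miR-15b-5p and miR-16-5p 0.986, and for miR-15a-5p and miR-15b-5p, on separate chromosomes, 0.980. Over the 10 pairs of the 5 members r ran from 0.966 to 0.994 and rho from 0.800 to 0.967 (exact permutation p for r from 0.00463 to 0.0139, adjusted p up to 0.0292 for r and up to 0.0875 for rho). Most of these pairs include miR-195a-5p or miR-497-5p, and all 5 members share their high arrays. These p-values therefore describe the arrays as well and are no independent support for a shared movement. Among all pairs of the 424 tested miRNAs, 0.613% had an r of 0.966 or more. Without the 3 high arrays, r over the 10 pairs ran from 0.387 to 0.976, so for some pairs the size of r may rest on those arrays. These r again hold a single difference per group and are imprecise. The probes of miR-195a-5p differ from miR-16-5p by 2 bases, and how far the probes of these members bind each other's miRNA was not tested.

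**Figure D4:**
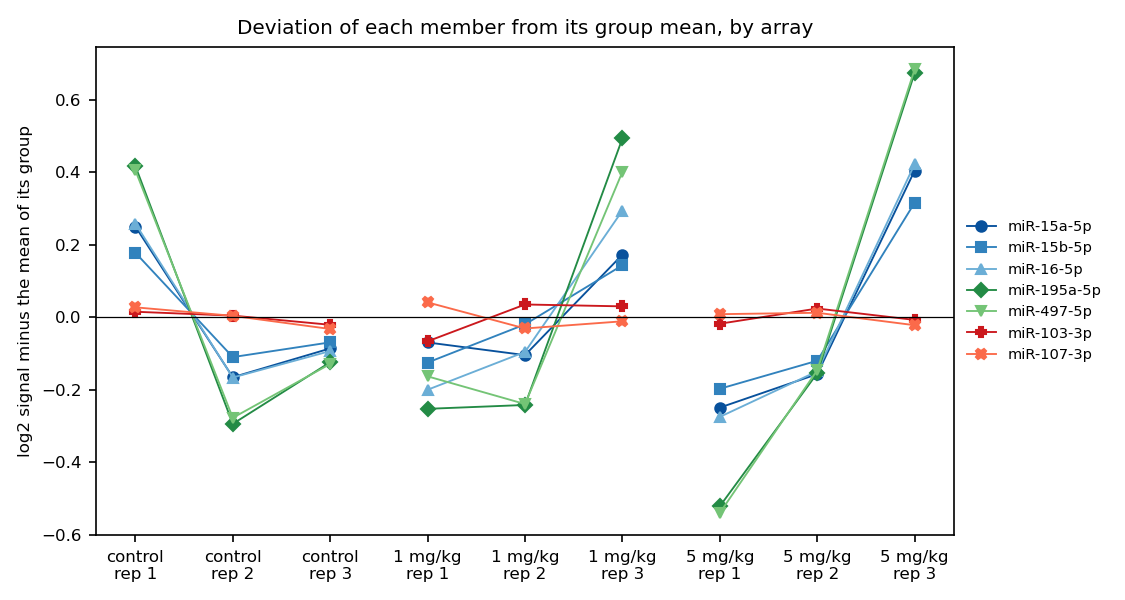
Log2 signal of each member minus the mean of its group (y axis) on each of the 9 arrays (x axis), with lines joining the 3 arrays of a group. The 5 members with the seed AGCAGCA move together, and miR-103-3p and miR-107-3p stay near 0 on all 9 arrays.

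The r of miR-103-3p and miR-107-3p with the 5 was far lower. Over the 11 pairs that include either, r ran from -0.42 to 0.34, and the lowest exact permutation p was 0.398 (adjusted p = 0.675). The r of miR-103-3p with miR-107-3p was -0.42 (exact permutation p = 0.519), and 0.66 without low-dose replicate 1 and high-dose replicate 2. Their spread leaves little to correlate: the SD within groups was 0.037 for miR-103-3p and 0.030 for miR-107-3p, ranks 417 and 421 of 424 from the largest. That of miR-195a-5p was 0.482 (rank 14) and that of miR-497-5p 0.463 (rank 19). miR-16-5p (0.293, rank 49), miR-15a-5p (0.256, rank 70) and miR-15b-5p (0.199, rank 124) lay between them, all above the median of 0.142 over all tested miRNAs. Since miR-195a-5p and miR-497-5p were named beforehand as varying between arrays, their ranks only describe that choice.

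**Figure D5:**
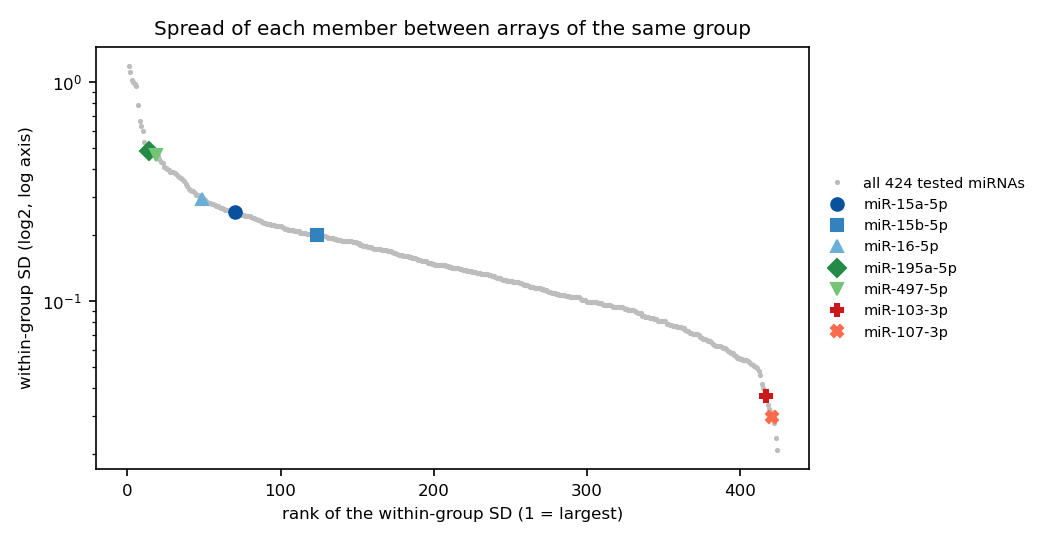
SD between arrays of the same group (y axis, log2 units on a log axis) of all 424 tested miRNAs by rank (x axis), with the 7 members marked. The 5 members with the seed AGCAGCA lie in the upper part, ranks 14 to 124, and miR-103-3p and miR-107-3p near the end, ranks 417 and 421. miR-195a-5p and miR-497-5p were named beforehand as varying between arrays.

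Many other miRNAs followed the same arrays. Of the 417 tested miRNAs that are not members, 45 had an r above 0.9 with miR-195a-5p and 50 an r below -0.9, and for the other members of the 5 the counts were 40 to 46 and 50 to 57. For miR-103-3p they were 1 and 1, and for miR-107-3p 2 and 0. The main axis of the deviations from the group means held 62.8% of the variance of all tested miRNAs. The miRNAs most like miR-195a-5p were miR-26a-5p (r = 0.998), miR-24-3p (0.987) and miR-27a-3p (0.985), all over 9 arrays. For miR-497-5p they were miR-26a-5p (0.997), let-7b-5p (0.992) and miR-1927 (0.982), and for miR-107-3p miR-3096b-3p (0.988), miR-125a-3p (0.918) and miR-6418-5p (0.878). These are descriptions of 9 arrays that share slides.

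Marker miRNAs of cell types moved with the 5 members in both directions. Of the 4 neuronal miRNAs, miR-124-3p (r from 0.86 to 0.94 with the 5) and miR-128-3p (0.78 to 0.88) went with them, miR-138-5p against them (-0.98 to -0.94), and miR-9-5p with neither (-0.17 to 0.01). The summed signal of the 4 was 141 to 162 in the control group, 120 to 141 at the low dose and 134 to 156 at the high dose. Most of it is the signal of miR-128-3p, at 5.71 to 6.39 in log2, and of miR-124-3p, at 5.45 to 5.80. Of the 4 vessel miRNAs, all detected on 9 of 9 arrays, the endothelial miR-126-3p went with the 5 (0.95 to 0.99), while miR-126-5p (-0.18 to -0.11) and the smooth muscle miR-143-3p (-0.46 to -0.29) and miR-145a-5p (-0.49 to -0.33) did not. In limma 0 of the 4 neuronal miRNAs passed the unadjusted threshold at either dose, and of the vessel miRNAs 1 did at the low dose, miR-143-3p, higher by 0.29 (unadjusted p = 0.0338, adjusted p = 0.543). Of all tested miRNAs, 7.78% passed at the low dose and 9.43% at the high dose. The vessel sum was 5.93 to 6.48, 6.23 to 6.61 and 6.07 to 6.83 in the 3 groups, and most of it is the signal of miR-126-3p, at 2.42 to 2.63 in log2.

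The choroid plexus miRNAs, of which 4 of 4 were tested, had negative r with the 5, from -0.82 for miR-448-3p with miR-15a-5p to -0.26 for miR-204-5p with miR-195a-5p. miR-448-3p was detected on 7 of 9 arrays, and on high-dose replicate 3 it stood at -6.26, the value that undetected miRNAs take there. Its r and its change between the doses include that value. Their sum, 3.08 to 4.90 in the control group, was 5.40 to 8.81 at the low dose and 2.86 to 5.60 at the high dose. Nearly all of that sum is the signal of miR-204-5p, at 1.47 to 3.08 in log2, so it is no separate measure beside that miRNA. At the low dose 2 of the 4 were higher than control at the unadjusted threshold (7.78% of all tested passed it in either direction), miR-204-5p by 0.77 (unadjusted p = 0.0249, adjusted p = 0.538 in limma) and miR-204-3p, detected on 6 of 9 arrays, by 1.08 (unadjusted p = 0.0156, adjusted p = 0.538 in limma). At the high dose 0 of 4 passed, and between the doses all 4 were lower at the high dose (3.77% of all tested passed), with a median of -0.86 and 0 past the adjusted threshold. The 75th percentile of the signal was 542, 612 and 614 on the 3 arrays where the 5 members were high and 492 to 599 on the others, with 420, 436 and 419 detected miRNAs against 410 to 436. The part of cell makeup and of array quality in the shared movement was not tested.

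Of the wider set of miRNAs with AGCAGC at bases 1 to 3, the array holds 6 besides the members, and little of it was measured. miR-322-5p was the only relative tested.
miR-322-5p: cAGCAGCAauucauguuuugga
It has the seed of the 5 and comes from the X chromosome with miR-503, another member of the extended family of miR-15 and miR-16, which was detected on 3 of 9 arrays. The other 4 relatives were detected on no array. miR-322-5p read -1.75, -1.63 and -1.71 in the control group, -1.70, -1.87 and -1.63 at the low dose, and -1.52, -1.65 and -1.94 at the high dose. It changed by -0.04 and -0.01 at the low and the high dose (standard error 0.12), and its r with the 5 members was -0.68 to -0.53.

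The passenger strands, the other arms of the members' precursors, were at the limit of the array: 8 of the 9 on the list are on it, and all 8 were detected on no array. Among the other miRNAs that the study names for BACE1, which are arms of miR-328, miR-298, miR-188, miR-186, miR-29 and miR-9, 14 of 17 were tested. At the high dose 0 of the 14 passed the unadjusted threshold in either direction (9.43% of all tested did), and their median change was -0.03. At the low dose 0 were higher and 1 was lower (7.78% of all tested passed in either direction), miR-29b-1-5p, by -0.17 (unadjusted p = 0.0364 in limma, adjusted p = 0.543), and the median was -0.09. Between the doses miR-9-5p and miR-186-3p passed, both higher at the high dose, by 0.17 and 0.23 (adjusted p = 0.995 for both in limma, where 3.77% of all tested passed the unadjusted threshold). These 3 were named after their values were seen. miR-107-3p, at -0.02 at the high dose, lay among them.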

How the data were processed

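Total hippocampal RNA was labelled with Cy3 and hybridized to 9 one-colour Agilent mouse miRNA arrays, 3 per group. Per the labels, the authors used Agilent Feature Extraction 10.7, and each deposited array file holds intensity values per spot (mean, local background and background-subtracted) with no normalization between arrays. A deposited matrix of log2 expression, used as an alternative, has equal quartiles over the tested miRNAs in all columns (median 3.40), as quantile normalization gives. Its columns had r from 0.975 to 0.979 with the values computed here, and slopes of 1.23 to 1.25 on them, so miRNAs were not centred. Its zero point and the normalization step are not given in the sources used here. The study's other assays were not analysed here.

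Background-subtracted intensities without outlier spots were averaged per probe, added up per miRNA, and divided by the array's 75th percentile over the 395 miRNAs with a detection call on every array. Values under the lowest detected signal were raised to it before log2. Tests covered the 424 miRNAs detected throughout at least 1 group, in 1 limma model of the 3 groups (version 3.58.1, R 4.3.3), with Benjamini-Hochberg adjustment over the 424. For members, two-sided exact permutation tests were added. Correlations used values less their group mean and 216 rearrangements within groups. The limma p-values set group differences against the spread between these arrays, and the permutation p-values count rearrangements of these arrays.

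The members and lists were chosen with earlier results of these data known. Named miRNAs were the members, their seed relatives and passenger strands, the 3 most alike miRNAs of miR-107-3p, miR-195a-5p and miR-497-5p, and the markers. Arrays with equal replicate numbers were not paired, since their deviations correlated from -0.65 to 0.74. Of 49880 spots, 0 had the same signal on any pair of arrays. Sequences and gene spans are RefSeq's (GRCm38.p6), in which 1017 of the 1247 names were found, and exon and intron positions were not used here.

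The alternatives were Feature Extraction's own total per miRNA, normexp (offset 50), averaging instead of adding probes, 4 scalings, 2 filters, the deposited matrix, fits of 2 groups, no moderation (the LSD comparison of the methods), terms for replicate number, slide row or slide, and removal of each array. The slide row was the row number alone, so high-dose replicate 3, in row 1 of slide 2, was put with row 1 of slide 1.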

Additional observations from a re-analysis of the deposited data

How the results depend on the processing

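The number of tested miRNAs at an unadjusted p under 0.05 in limma was 33, 40 and 16 for low dose against control, high dose against control and high against low dose. With normexp it was 14, 17 and 9, with the slide row as a block 8 and 14 against control, with the mean over probes 66 at the low dose, with the total signals 102 at the high dose, and with the slide as a block, which equals leaving out high-dose replicate 3, 120 at the high dose and 35 between the doses. Without a filter, 780 passed at the low dose, since undetected miRNAs all take their array's floor. Leaving out each array gave 11 (without control replicate 1) to 49, 21 to 120, and 8 (without low-dose replicate 3) to 35. With the replicate block the counts were 36, 36 and 15, and 0 members passed.

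Of the 7 members, 0 passed in all 3 comparisons. The exceptions were 1 at the low dose, 1 at the high dose and 2 between the doses without moderation, 1 at the high dose with the total signals, and 4 at the high dose and 2 between the doses with the slide as a block. Leaving out arrays gave 0 to 4 at the high dose and 0 to 2 between the doses. The r of miR-195a-5p and miR-497-5p was 0.990 to 0.999 over all alternatives (0.992 with the replicate block, 0.992 to 0.998 without each array), past the exact permutation threshold in all of them.

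The signs of small changes turned. At the low dose, with the slide row as a block, they were 0.0095 for miR-15a-5p, 0.063 for miR-15b-5p, 0.029 for miR-16-5p and -0.024 for miR-103-3p, and the last 3 crossed 0 without single arrays (-0.10 to 0.056, -0.23 to 0.047 and -0.0056 to 0.045). With the total signals they were 0.11 for miR-15b-5p, 0.056 for miR-16-5p and 0.043 for miR-107-3p, without scaling 0.077, 0.027 and 0.014, and with the percentile taken over all miRNAs 0.0030 for miR-15b-5p. At the high dose, miR-16-5p was at 0.067 with the total signals, 0.025 without scaling, 0.023 with the slide row and -0.30 to 0.048 without single arrays, and miR-107-3p at 0.13 and 0.089 with the total signals and without scaling. Between the doses, miR-16-5p was at 0.011 with the total signals, and leaving out single arrays gave -0.22 to 0.14 for it, -0.51 to 0.089 for miR-195a-5p and -0.48 to 0.13 for miR-497-5p. Quantile normalization gave -0.021 for miR-103-3p and -0.052 for miR-107-3p, and the deposited table -0.066 for miR-107-3p. The cause of these turns was not tested. All other values of the members kept their sign.

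The standard errors of the changes were 0.34 and 0.32 for miR-195a-5p and miR-497-5p and 0.06 for miR-103-3p and miR-107-3p, so a change of a given size was harder to detect for the first pair.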
